A study of Drosophila melanogaster with 2 samples.

Results

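Noncoding binding sites of the sisA-eGFP fusion protein that lay next to a promoter but not in it were described in whole Drosophila melanogaster embryos. They are the summits of the conservative peak list that fell more than 500 and up to 2000 bp, on either side, from the nearest transcription start site (TSS) of a protein-coding gene and outside every exon of a protein-coding gene. The rule used position only and no signal value, and it kept 968 of the 5133 summits on the X, chromosome 4 and the arms 2L, 2R, 3L and 3R. Of the others, 1905 lay within 500 bp of a TSS (promoter summits), 2050 lay outside exons and over 2000 bp away (distal summits) and 210 were exonic. The data came from chromatin immunoprecipitation followed by sequencing (ChIP-seq), with an antibody to GFP, in 2 biological replicates of 1 group of transgenic embryos aged 0 to 18 h that carry a GFP-tagged sisA. The labels say that sex was not collected and give no narrower stage, so each value is an average over all cells and ages of a collection. Nothing in the labels tells whether the replicates came from separate cages. Chromatin had been sonicated to 200 to 800 bp. Peaks, with no reads behind them, were the deposited data, so depth per replicate is unknown, and no control library was used here.

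The sisA protein is a transcription factor of the basic leucine zipper (bZIP) family. Its gene is X-linked, and the number of X chromosomes in the early embryo is read partly through its dose, which sets whether Sxl, the switch gene of sex determination, is turned on. In Drosophila, the sequence just outside a core promoter and the first introns of developmental genes often hold enhancers, which are read by sequence-specific factors and by proteins that open chromatin, such as the GAGA factor.

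The sequences at the strongest sites show the base composition that recurred across the set. Each is the plus strand of dm6, 60 bp to each side of the summit, inside an intron and clear of every annotated exon, for the 6 strongest sites that could be printed. Capitals mark the word TATAAA on either strand (TTTATA on the other), which among 27 searched words had the largest rise over the flanks. Among all 2080 words of 6 bases it ranked 18th by that rise. The windows are chr2L:6612654-6612774 for CG11050, chrX:2137303-2137423 for ph-p, chrX:4910297-4910417 for CG32772, chrX:5918859-5918979 for CG3726, chr3L:14759442-14759562 for Trl and chrX:4324927-4325047 for norpA.
CG11050: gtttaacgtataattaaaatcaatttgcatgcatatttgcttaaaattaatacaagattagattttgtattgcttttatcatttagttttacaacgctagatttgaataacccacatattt
ph-p: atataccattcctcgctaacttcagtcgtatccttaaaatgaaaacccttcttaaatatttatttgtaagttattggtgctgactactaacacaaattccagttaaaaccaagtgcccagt
CG32772: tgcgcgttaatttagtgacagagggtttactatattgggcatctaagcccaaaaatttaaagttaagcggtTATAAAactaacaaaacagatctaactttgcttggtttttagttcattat
CG3726: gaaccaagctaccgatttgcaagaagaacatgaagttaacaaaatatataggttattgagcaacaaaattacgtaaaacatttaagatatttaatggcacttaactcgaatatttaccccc
Trl: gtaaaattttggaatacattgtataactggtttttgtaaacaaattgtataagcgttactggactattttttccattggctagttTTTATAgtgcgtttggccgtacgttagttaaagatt
norpA: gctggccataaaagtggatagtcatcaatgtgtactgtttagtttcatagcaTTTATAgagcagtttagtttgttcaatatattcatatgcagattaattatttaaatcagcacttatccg
The next 3 sites by signal that hold the word within 60 bp are near CG9837 (chr3R:8811612-8811732), Reph (chr2L:3804725-3804845) and Dhc64C (chr3L:4824948-4825068).
CG9837: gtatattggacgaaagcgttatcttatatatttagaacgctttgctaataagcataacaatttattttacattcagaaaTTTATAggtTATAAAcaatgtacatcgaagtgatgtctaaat
Reph: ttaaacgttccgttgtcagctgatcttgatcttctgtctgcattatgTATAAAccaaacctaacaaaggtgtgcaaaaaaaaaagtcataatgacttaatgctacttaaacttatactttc
Dhc64C: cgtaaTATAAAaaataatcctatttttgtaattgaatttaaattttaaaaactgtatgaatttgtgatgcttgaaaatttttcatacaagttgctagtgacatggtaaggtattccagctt
A and T make up 66.1% of the bases at ph-p and 76.9% at CG11050, with the other 7 windows between these values. Of the first 6 windows, 3 hold the capitalised word; within the same 60 bp it was in 7 of the 20 strongest sites and 230 of all 968 (23.8%).

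A second set shows the word CACTG, on either strand, which was singled out after the values of all words were seen. These are the 4 strongest sites, not printed above, with 2 or more copies within 100 bp of the summit, and each window reaches 100 bp to each side. They lie near NFAT (chrX:13640402-13640602), for (chr2L:3655713-3655913), Csk (chr3R:11649560-11649760) and CG32767 (chrX:5083681-5083881), and capitals mark each copy.
NFAT: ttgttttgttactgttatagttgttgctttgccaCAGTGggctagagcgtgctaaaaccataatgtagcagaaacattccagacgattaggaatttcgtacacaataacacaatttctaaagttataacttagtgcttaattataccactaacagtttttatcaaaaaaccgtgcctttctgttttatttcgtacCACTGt
for: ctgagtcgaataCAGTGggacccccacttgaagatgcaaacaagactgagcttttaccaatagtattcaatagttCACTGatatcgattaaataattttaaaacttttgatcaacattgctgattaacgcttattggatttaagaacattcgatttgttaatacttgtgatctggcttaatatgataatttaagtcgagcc
Csk: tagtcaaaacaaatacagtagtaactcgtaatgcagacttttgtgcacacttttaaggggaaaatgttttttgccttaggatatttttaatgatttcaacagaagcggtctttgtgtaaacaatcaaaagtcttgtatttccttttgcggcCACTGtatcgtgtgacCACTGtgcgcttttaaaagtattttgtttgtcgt
CG32767: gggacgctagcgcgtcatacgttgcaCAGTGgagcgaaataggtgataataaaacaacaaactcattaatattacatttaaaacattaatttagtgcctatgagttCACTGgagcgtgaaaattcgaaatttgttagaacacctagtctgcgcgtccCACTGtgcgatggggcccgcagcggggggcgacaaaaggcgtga
At NFAT the copies stand 64 bp to the left and 97 bp to the right of the summit, and at Csk 53 and 69 bp to the right. At for they stand 86 and 23 bp to the left, and CG32767 has 1 copy only 8 bp from the summit between others at 72 bp to the left and 59 bp to the right.

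Peak height is given as the signal value the authors deposited, on a scale that is not stated, and it was compared only within a list. The strongest of the 968 sites lay in an intron of Adf1, which encodes a transcription factor, 781 bp downstream of a TSS, with a signal of 2657 in the conservative list, 1310 in replicate 1 and 1373 in replicate 2. An intron of CG11050 held the next, 1027 bp downstream of a TSS, at 2577, with 1373 in replicate 1 and 1212 in replicate 2. The third lay in ph-p, a Polycomb group gene, 508 bp upstream of an internal TSS, at 2534, with 1450 in replicate 1 and 1119 in replicate 2. In both replicates these 3 sites were far above the median of the set, which was 76.1 in replicate 1 (n = 941) and 60.7 in replicate 2 (n = 932).

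HmgZ, which encodes an HMG-box chromatin protein, followed with 2248 at a site 557 bp upstream of one of its TSSs (1190 in replicate 1 and 1048 in replicate 2). The genes CG32772 and CG3726 had sites of 1735 and 1502 in introns, 1255 and 1759 bp downstream of a TSS. In Trl, which encodes the GAGA factor itself, the site 1540 bp upstream of an internal TSS reached 1299 (710 in replicate 1 and 583 in replicate 2). norpA, the phospholipase C of phototransduction, had a site of 1191 located 1378 bp downstream of a TSS. The signals of the other 12 among the strongest 20 ran from 1131 at CG9663 down to 817 at Csk, the C-terminal Src kinase gene. They were near LPCAT (1076), CG9837 (1038), edl (1035), chif (1015), mlt (1007), ImpL2 (955), NFAT (928), mub (926), for (842) and CG4496 (831). Among these, edl encodes a regulator of ETS factors, ImpL2 an insulin-binding protein, NFAT a Rel-family transcription factor, mub an RNA-binding protein and for a cGMP-dependent protein kinase.

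All 20 of these sites were intronic, 19 in an intron of the gene with the nearest TSS; the exception lay upstream of mlt, in an intron of KCNQ. Of the 20, 9 were upstream of the nearest TSS. Each was found in both replicates' own thresholded lists. Replicate 1 had the higher value at 18 of them, and Adf1 and chif were the exceptions; since the lists of the replicates need not share a scale, that order is no comparison of the replicates.

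**Figure D1:**
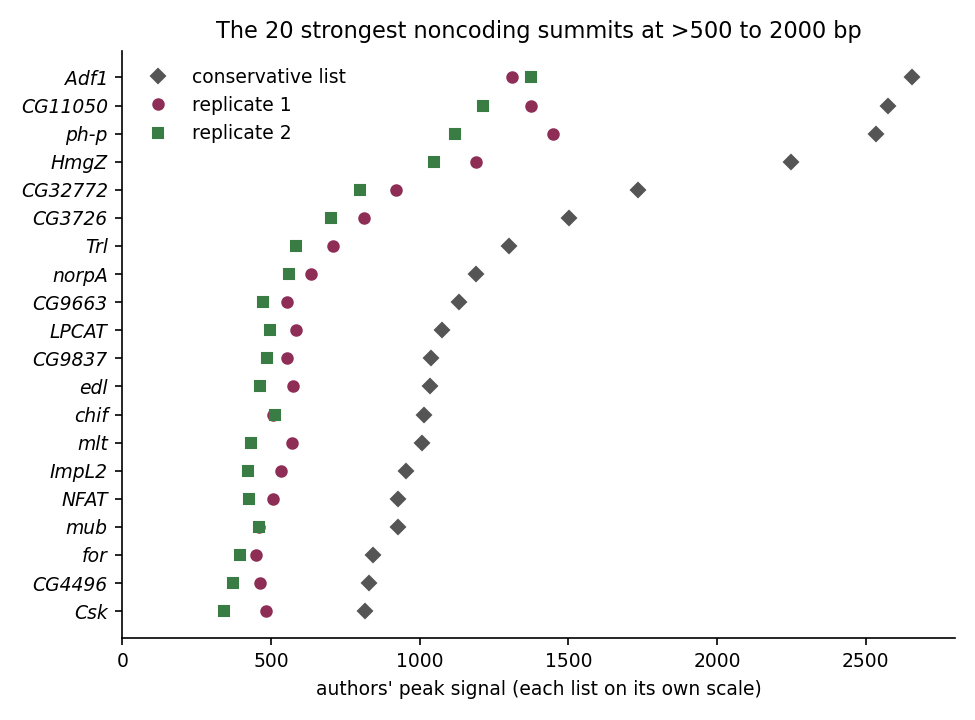
Authors' peak signal (x axis, each list on its own scale) of the 20 strongest noncoding summits at more than 500 and up to 2000 bp, named by the gene with the nearest TSS and ordered by the conservative list (diamonds), with the value in replicate 1 (circles) and replicate 2 (squares). Signals ran from 2657 at Adf1 down to 817 at Csk, with 1310 and 1373 in the replicates at Adf1 and 483 and 341 at Csk.

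Across the set the signal had a median of 132 (95% interval of the median 124 to 139, n = 968), against 157 at promoter summits (149 to 166, n = 1905) and 113 at distal summits (110 to 118, n = 2050). Intervals here and below cover counting error only, and neighbouring summits are not independent. The middle 50% of the 968 sites ran from 91.0 to 221, and their whole range was 2.33 to 2657. They made up 4 of the 20 strongest summits on the arms, 17 of the strongest 100, 88 of the strongest 500 and 184 of the strongest 1000. Among all 5133 summits on the arms they were 968, a similar share, so these counts show no clear excess or lack among the strongest summits. Intronic sites had a median of 135 (127 to 144, n = 718) and intergenic sites 122 (113 to 137, n = 250), and these intervals overlap. In successive 250 bp steps away from the TSS the median signal was 136, 126, 122, 126, 143 and 135, with no steady trend over the range.

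**Figure D2:**
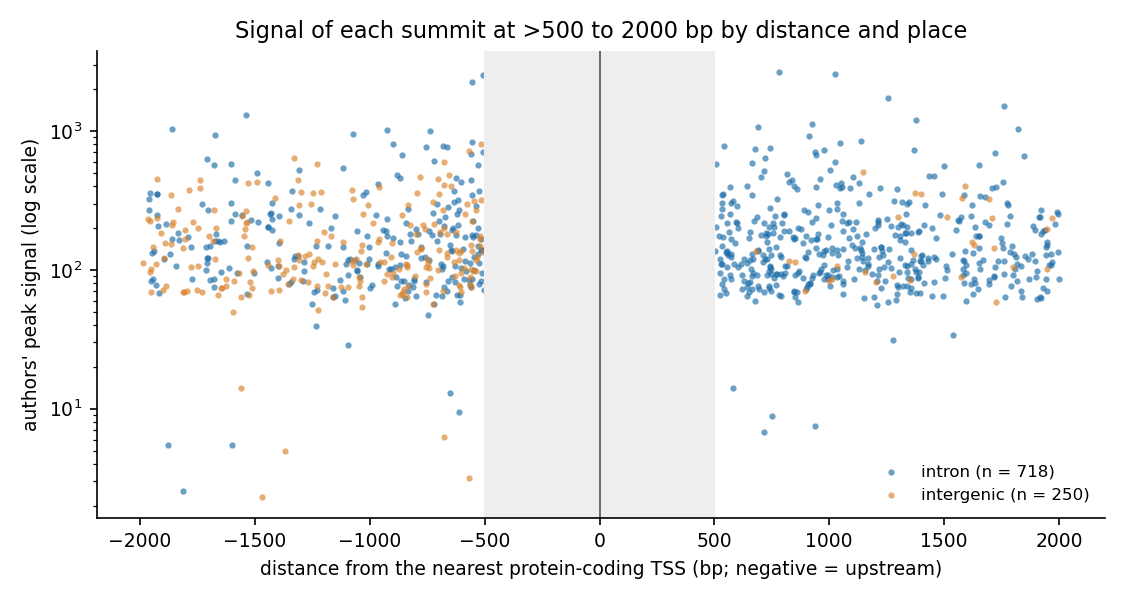
Authors' peak signal (log scale) of each of the 968 summits against its signed distance from the nearest protein-coding TSS in bp, negative being upstream, for intronic (n = 718) and intergenic (n = 250) sites; the grey band is the promoter range that the rule leaves out. The middle 50% of the points lie between 91.0 and 221, 461 of the 491 downstream sites are intronic, and 11 sites lie below 10.

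The range was denser in summits than distal noncoding sequence and less dense than sequence within 500 bp of a TSS. It covers 16.4 Mb, 12.2% of the arms, and held 59.1 summits per Mb (exact Poisson 95% interval 55.5 to 63.0), against 124 per Mb within 500 bp of a TSS (119 to 130) and 26.8 per Mb in distal noncoding sequence (25.7 to 28.0). The ratio to distal sequence was 2.20 (2.04 to 2.38). In the first 250 bp past the promoter range the density was 77.4 per Mb (68.2 to 87.6), and in the later steps of 250 bp it was 59.5, 55.5, 53.2, 51.9 and 51.7 per Mb. The last of these (42.8 to 61.8) was still above the distal value, and the largest drop between steps, with both sides pooled, was the first. Upstream the steps held 78.4, 54.6, 51.2, 45.0, 58.8 and 53.1 per Mb and downstream 76.2, 64.7, 59.8, 60.8, 46.0 and 50.5. Downstream the largest drop came at 1500 bp, but the intervals of the steps before it (48.3 to 75.4) and after it (35.1 to 59.2) overlap.

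At the edges of the range, the members nearest to the promoter limit were near ush (signal 139), CG5854 (137) and Hecw (71.3), each 502 bp from a TSS. Just outside it lay summits at Sqor, 500 bp away (179), and at CG42671 (345) and Scsalpha1 (90.9), both 499 bp away. At the far end, tx (2000 bp, 85.4), CG13917 (1996 bp, 135) and NFAT (1995 bp, 251) were inside, and CG33752 (2001 bp, 167), Src64B (2001 bp, 61.2) and pot (2002 bp, 237) outside. Signals inside and outside either limit overlapped.

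**Figure D3:**
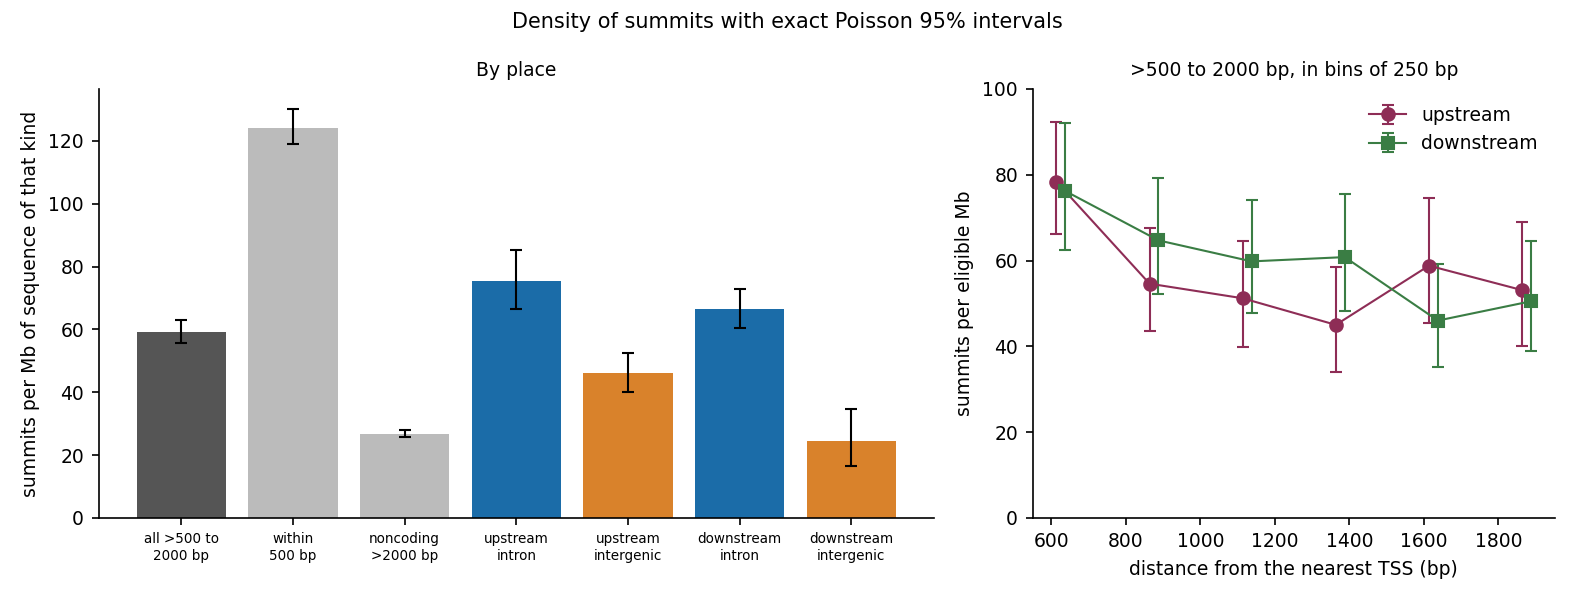
Summits per Mb with exact Poisson 95% intervals: left, for all 968 sites, promoter summits, distal noncoding summits, and the 968 split by side and place; right, for the 968 in bins of 250 bp from the nearest TSS (x axis, bp) upstream (circles) and downstream (squares). Introns held 75.3 per Mb upstream and 66.4 per Mb downstream, against 46.1 and 24.3 per Mb in intergenic sequence.

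Introns held more of these sites than their share of sequence. Of the 968, 718 were intronic (74.2%, Wilson 95% interval 71.3 to 76.8), whereas introns make up 63.3% of the eligible bases. Per Mb this was 69.3 in introns against 41.6 between genes, a ratio of 1.67 (1.44 to 1.93), beside 1.33 (1.21 to 1.45) for distal summits. The same order held on both sides of the TSS, with 75.3 against 46.1 per Mb upstream (ratio 1.63, 1.36 to 1.96) and 66.4 against 24.3 downstream (2.74, 1.89 to 4.10). In sets of 242 sites, from the strongest to the weakest, the intronic share was 74.8%, 76.9%, 74.4% and 70.7%, with overlapping intervals.

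Most intronic sites lay in the gene they were nearest to. Of 718, 644 (89.7%) were in an intron of the gene with the nearest TSS, and 547 of those 644 (84.9%) were in the first intron of at least 1 transcript, 375 (58.2%) in the first intron of every transcript that spans the site. Even upstream of the nearest TSS, 195 of 257 intronic sites (75.9%) were inside the same gene, ahead of an internal TSS. The nearest TSS was the outermost one of its gene for 560 of the 968 sites (57.9%, 54.7 to 60.9), against 74.4% of promoter summits and 69.6% of distal summits. With only 1 TSS per gene, the outermost, 38% of the sites chosen would be upstream.

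With introns and intergenic sequence pooled, sites fell evenly on both sides of the TSS. Of the 968, 477 were upstream (49.3%, 46.1 to 52.4), where 8.19 of the 16.4 Mb eligible are upstream, and the ratio of the densities, upstream over downstream, was 0.97 (0.854 to 1.10). Between genes, however, upstream sequence held 46.1 per Mb (40.2 to 52.6) and downstream sequence 24.3 (16.4 to 34.7). In introns the values were 75.3 (66.4 to 85.1) and 66.4 (60.5 to 72.8), with overlapping intervals. Introns make up 6.94 of the 8.18 Mb downstream and 3.41 of the 8.19 Mb upstream. Of promoter summits 83.7% were upstream, so that the share of the 968 was lower by 34.5 points (95% interval of the difference -38 to -30.9), and 41.6% of distal summits were upstream.

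By arm, the density was highest on the X, at 74.4 per Mb (65 to 84.8), followed by 3R at 59.1, 2R at 56.2, 3L at 55.4 and 2L at 54.4; the intervals of these 4 autosomal arms overlap. The X stood at 1.34 times the other arms (1.15 to 1.55), beside 1.36 (1.22 to 1.51) for distal summits and 1.09 (0.968 to 1.23) for promoter summits. Sex was not collected and no control library was used, so X copy number in the sample and binding per copy cannot be told apart. Chromosome 4 held 0 sites in 0.177 Mb, with an exact Poisson 95% interval of 0 to 20.8 per Mb.

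Sites of this range stood closer to other summits than the rest. Another summit of the list lay within 1000 bp of 248 of them (25.6%, 23 to 28.5), against 16.7% of all other summits, a difference of 8.91 points (6.02 to 12). The median distance to the next summit was 2872 bp, against 5057 bp. Closer pairs, within 250 bp, were no more frequent (4.65% against 5.43%, difference -0.777 points, -2.15 to 0.87). The smallest spacing in either group was 199 bp, so the list holds no closer pairs to compare. All 11 members with a signal under 10 belonged to such pairs, at 199 to 224 bp from another summit, and 10 of the 11 were in neither replicate's ranked list. They include a site of 2.57 upstream of brk and are counted among the 968 throughout.

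Few sites lay at other annotated elements, and the same was true of the other summits of the list. A TSS of a gene that is not protein-coding lay within 500 bp of 34 (3.51%, 2.52 to 4.87). The 4.32% of the eligible bases is inside that interval, and all other summits had 4.63% (difference -1.12 points, -2.32 to 0.36). Annotated transposable elements held 2 (0.207%, 0.0567 to 0.750), against 3.25% of the eligible bases and 0.456% of all other summits (difference -0.25 points, -0.546 to 0.318). The sources used here do not say how reads that match several places were treated. The part of that treatment in these low shares was not tested.

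Support from the single replicates followed signal. A summit lay within 100 bp in both replicates' own thresholded lists for 586 of the 968 (60.5%, 57.4 to 63.6), against 57.5% of all summits on the arms, 67.4% of promoter summits and 50.9% of distal summits. The conservative list was itself made from both replicates, so this is no independent check. In the same sets of 242, from the strongest to the weakest, the share was 99.6%, 90.9%, 48.8% and 2.89%. Replicate 1 matched 764 sites and replicate 2 matched 631, whose own lists held 4720 and 3408 summits on the arms. In the longer ranked lists, before thresholding, 918 sites (94.8%) were found in both replicates, against 94.3% of all other summits (difference 0.501 points, -1.21 to 1.93). Those lists hold 99657 and 104373 summits on the arms, so a match within 100 bp is easily met. Over the 586 sites the replicates' summits lay a median of 15 bp apart and their signals had a Spearman rho of 0.884, beside 0.889 over 2368 other summits; peaks of 1 pair of libraries share their depth and are not independent.

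The 968 sites were nearest to 787 genes, 5.64% of the 13945 protein-coding genes on the arms. Of these genes, 255 (32.4%, 29.2 to 35.7) also had a promoter summit, against 17.8% of all protein-coding genes. They had a median of 2 TSSs and a length of 9643 bp, against 1 TSS and 2166 bp for all genes, and a long gene with several TSSs offers more eligible sequence. Counted by site, 342 of 968 (35.3%) had such a promoter companion at the same gene, 38.3% of intronic and 26.8% of intergenic sites. Where the gene had no promoter summit the site's median signal was 128 (119 to 136, n = 626), beside 139 (127 to 164, n = 342) where it had one.

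Repeated sites marked 33 genes with 3 or more, which had a median of 4 TSSs and 30976 bp. NFAT and Tlk, the gene of a Tousled-like kinase, had 5 each. In NFAT all were intronic, with signals of 928, 415, 251, 189 and 124, and 4 of them were matched in both replicates. In Tlk they were 339, 305, 173, 74.8 and 70.0, spread over a gene of 69764 bp with 8 TSSs. Genes with 4 sites were CHES-1-like, which encodes a forkhead factor (up to 623), CG42258 (513), aop, the ETS repressor Yan (430), CG43658 (343), shn (299), Shrm, an actin-binding protein (239), SNF4Agamma, a subunit of AMP-activated kinase (136), and ps, a splicing regulator (119). The 4 sites of shn, all intronic and all matched in both replicates, had 299, 275, 150 and 142.

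The genes with 3 sites were led by HmgZ (2248, 158 and 63.2) and Trl (1299, 303 and 187), where 1 site stood far above the others. Top signals were 689 at Moe, which encodes moesin, 300 at RhoGAP18B, 273 at Svil, 217 at capu, which encodes a formin, 202 at Mrtf, 162 at shot, which encodes a spectraplakin, and 129 at Fim, the fimbrin gene. In chinmo, a BTB zinc-finger gene, all 3 sites were intergenic and upstream (266, 185 and 54.0). The rest were Kank, Tpr2, CG13917, tou, stv, Ptpmeg2, Acsl, Mob2, Doa, dlg1, loco, bon and Rtnl1, with top signals of 88.4 at Rtnl1 to 681 at Kank.

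Over 20 gene lists together, 54 of 326 genes (16.6%) were nearest to a site of this range, against 5.64% of all protein-coding genes, and the shares were highest in the BMP and EGFR lists. The lists were chosen with earlier results of these data known, so their shares are descriptions. In every list but the ribosomal one the median gene was longer than the 2166 bp of all genes, and the part of gene length in these shares was not tested. In the BMP pathway, where the ligand dpp signals through the receptors tkv, put and wit to the Smad protein Mad, 7 of 14 genes had a site and 0 of 14 had a promoter summit. Of all protein-coding genes 17.8% had a promoter summit, and the counts of genes with one, here and below, are to be read beside that share. Mad had a site of 768 (416 in replicate 1 and 360 in replicate 2), 664 bp upstream of an internal TSS. wit, a type II receptor gene, had 252 in an intron, 567 bp downstream of its TSS, dpp 174 between genes, 1702 bp upstream of a TSS, tkv 110 and put 108. Genes of repressors in the pathway were marked as well, with the 4 sites at shn, a zinc-finger protein that acts with Mad, and at brk, which represses the targets of the pathway, with a site of 223 located 698 bp upstream of the TSS. All of these but the site of 2.57 at brk were matched in both replicates. Of the 11 BMP sites 10 were intronic, those at brk in an intron of another gene, CG1677.

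In the EGFR and ETS list 8 of 16 genes had a site and 4 had a promoter summit. The transcription factor genes and their regulator had edl at 1035 (573 in replicate 1 and 463 in replicate 2), aop at 430, 247, 92.5 and 73.5, and pnt, the ETS activator, at 176 and 89.4. The receptor Egfr had 102 in an intron, the kinase Raf 77.1, the ligand-processing protease rho 74.7 and the feedback inhibitors sty and aos 174 and 96.0. Of these 12 sites 9 were intronic. Only the sites of edl, Egfr, the stronger pnt site and the pair of strongest aop sites were matched in both replicates, and those at sty and Raf were not in the ranked list of replicate 2.

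Among patterning genes, 5 of 21 dorsal-ventral genes had a site and 1 had a promoter summit. They were ush, a GATA cofactor (272 and 139), brk, dpp, Doc1 (92.5) and rho, some of which stand in the lists above too. Of 20 neural genes 5 had one, with brat, a translational repressor, at 609 and elav, a neuronal RNA-binding protein, at 289, and 2 had a promoter summit. Polycomb and Trithorax genes had a site in 4 of 22, at ph-p, Trl, ph-d (464) and kis (444), and a promoter summit in 8. In the Notch list neur, a ubiquitin ligase gene, had 396 and fng 140; in the mesoderm list bin had 300 and lmd 96.5; and among Hox and segment polarity genes Abd-B had 126 and lab 84.5. No gap or pair-rule gene of 20 was nearest to such a site, beside 5.64% of all protein-coding genes. A list of 20 is too short to tell 0 from that share, and its median gene had 1 TSS and 2941 bp. The sites of Doc1, rho, fng, lmd and lab were not matched in both replicates.

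Of the sex determination genes, Sxl and fru had sites, 2 of 19. Those of Sxl lay in introns, 1334 and 1965 bp downstream of the nearest TSS, with 253 (162 in replicate 1 and 88.1 in replicate 2) and 130 (72.8 and 54.6). Those of fru, 146 and 129, were intronic as well. Among bZIP genes 4 of 20 had a site, with Atf3 at 452 in intergenic sequence and kay, which encodes Fos, at 220, followed by CrebB (209 and 158) and CrebA (148 and 71.5). The site of kay and the weaker site of CrebA were not matched in both replicates.

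In 14 of the 20 lists more genes had a promoter summit than a site of this range, among them the sex determination (5 against 2), bZIP (7 against 4), mesoderm (3 against 2) and Polycomb and Trithorax lists, and in 4 fewer did. All protein-coding genes together have the first order too, with a promoter summit in 17.8% and a site of this range in 5.64%. The pairs below are to be read beside those shares. Ribosomal protein genes had 0 of 23 with a site and 8 with a promoter summit, insulator genes 1 of 16 (Trl) and 8, ecdysone and nuclear receptor genes 2 of 17 (Hr4 at 190, Hr38 at 117) and 8, and cell cycle genes 2 of 17 (Cdk4 at 187, CycE at 82.3) and 7. The counts were 3 of 14 and 7 for heat shock genes (Hsp83 at 394, stv at 270), 3 of 15 and 7 for insulin and TOR genes (Sesn at 448, InR at 200), 2 of 11 and 6 for the clock list (dco at 241, sgg at 127), 4 of 22 and 6 for axon guidance (unc-5 at 358, dock at 143) and 2 of 18 and 4 for Wnt and Hedgehog genes (fz at 222, sgg). Of the sites with a signal given here, those of CycE and sgg were not matched in both replicates. Ribosomal protein genes are short, with a median of 1484 bp, against 10577 bp in the BMP list and 15037.5 bp in the EGFR list.

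**Figure D4:**
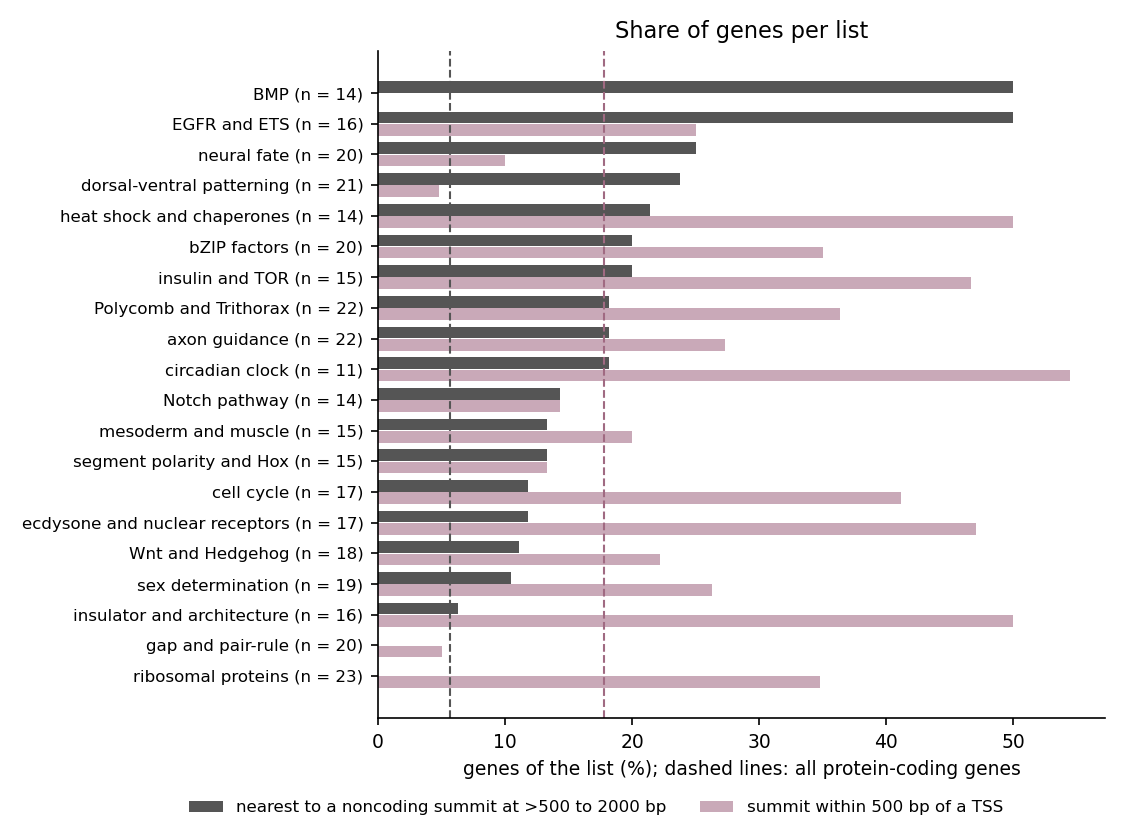
Share of the genes of each list (percent) that are nearest to a noncoding summit at more than 500 and up to 2000 bp (dark bars) and that have a summit within 500 bp of a TSS (light bars); dashed lines give the same shares of all protein-coding genes, 5.64% and 17.8%. For the first measure 7 of 14 BMP and 8 of 16 EGFR genes are counted, and for the second 0 and 4, while of 23 ribosomal protein genes 0 and 8 are.

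The sequence under the summits was rich in A and T. Within 100 bp of the summit GC content was 36.0%, against 42.0% in windows centred 500 bp to each side and 39.7% over 81371 windows tiled across the eligible sequence. Of the 27 words searched on both strands in windows of 201 bp, 8 were more frequent at the summits than in the flanks and 19 less; the Wilson interval at the summits lay above the flanks for 4 and below them for 9. The share holding TATAAA, the TATA word, was 34.8% at the sites (31.9 to 37.9), 34.6% at promoter summits and 33.3% at distal summits. At the sites this stood against 20.8% in the flanks and 25.8% of eligible windows. The homeodomain core TAATTA was in 19.0%, against 12.1% and 15.6%. GATA-type AGATAA was in 15.1%, against 11.4% and 12.8%. These all consist largely of A and T, and the part of base composition in the shares was not tested.

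Words of the GAGA factor, of Pho and of promoter elements were no more frequent at these sites than in their flanks. The GAGA factor word GAGAG was in 22.5%, against 29.6% in the flanks and 20.4% of eligible windows. The Pho word GCCAT was in 24.6%, against 30.7% and 34.2%. The DNA replication-related element TATCGATA was in 0.103% of the sites, against 0.362% in the flanks and 5.88% of promoter summits. Motif 1 of promoters, GGTCACACT, was in 0.103%, against 0.31% in the flanks and 2.62% of promoter summits. The shorter word CGATA, contained in TATCGATA, was in 20.6%, against 22.2% in the flanks and 35.6% of promoter summits. Of the 5 bZIP words, 4 had flank shares inside the interval at the sites: TGANTCA was in 5.17% of sites and 4.96% of flanks, TGACGT in 4.44% and 5.11%, TTGCNNAA in 13.9% and 15.2%, and TTACGTAA in 0.207% and 0.103%. The full cyclic AMP response element TGACGTCA, which contains TGACGT, was in 2 sites (0.207%, 0.0567 to 0.750). The flanks had 0.775% and eligible windows 0.397%. The left flank (0.413%) was inside the interval at the sites and the right flank (1.14%) above it. Among the strongest 242 sites 4 held TGANTCA (1.65%), against 19 of the weakest 242 (7.85%). A missing word says only that these letters are not in the window.

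Among all 2080 words of 6 bases, ranked by their rise over the flanks, 19 of the first 20 hold only A and T, and there are 36 such words in all. TTAAAA came first, with a rise of 19.9 points, and TATAAA 18th, with 14.0. Among the first 20 there was 1 word with C or G. This was ACAGTG, in 24.9% of sites, against 9.61% in the flanks and 7.51% of eligible windows. Its shorter core CACTG, singled out after this ranking, was in 54.9% (51.7 to 58.0), against 30.8% and 28.0%, and 2 or more copies were in 18.4%, against 5.99% and 4.99%. It was not limited to this distance range, since 46.7% of promoter summits and 58.5% of distal summits held it. Its share was 60.3% in the strongest 242 sites and 57.4% in the weakest 242. Because the word was found in these windows, its shares are descriptions.

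The 3 words differed in where they stood around the summit. Bases were 66.1% A or T within 50 bp, 61.9% from 50 to 100 bp, 57.2% from 100 to 200 bp and 58.6% from 500 to 1000 bp away. Per 50 bp and 100 sites, TATAAA had 12.9 copies within 50 bp and 7.67 from 500 to 1000 bp. The core CACTG instead peaked beside the centre, with 14.7 copies within 50 bp, 24.8 from 50 to 100 bp, 14.6 from 100 to 200 bp and 10.1 far away. GAGAG was lowest at the centre, with 5.42 copies, and rose to 10.6 and then 18.1 from 100 to 200 bp, against 12.9 from 500 to 1000 bp.

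Promoter and distal summits showed the same layout of these words. The shoulders of CACTG held 24.8 copies at the 968 sites, 19.1 at promoter summits and 29.2 at distal summits. For GAGAG from 100 to 200 bp the values were 18.1 at the 968 sites, 15.0 at promoter summits and 12.7 at distal summits, beside 12.9, 9.43 and 9.04 from 500 to 1000 bp. In the printed windows 7 of the 9 copies stand at 53 to 97 bp from the summit, and the copy of for at 23 bp and that of CG32767 at 8 bp depart from that layout.

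**Figure D5:**
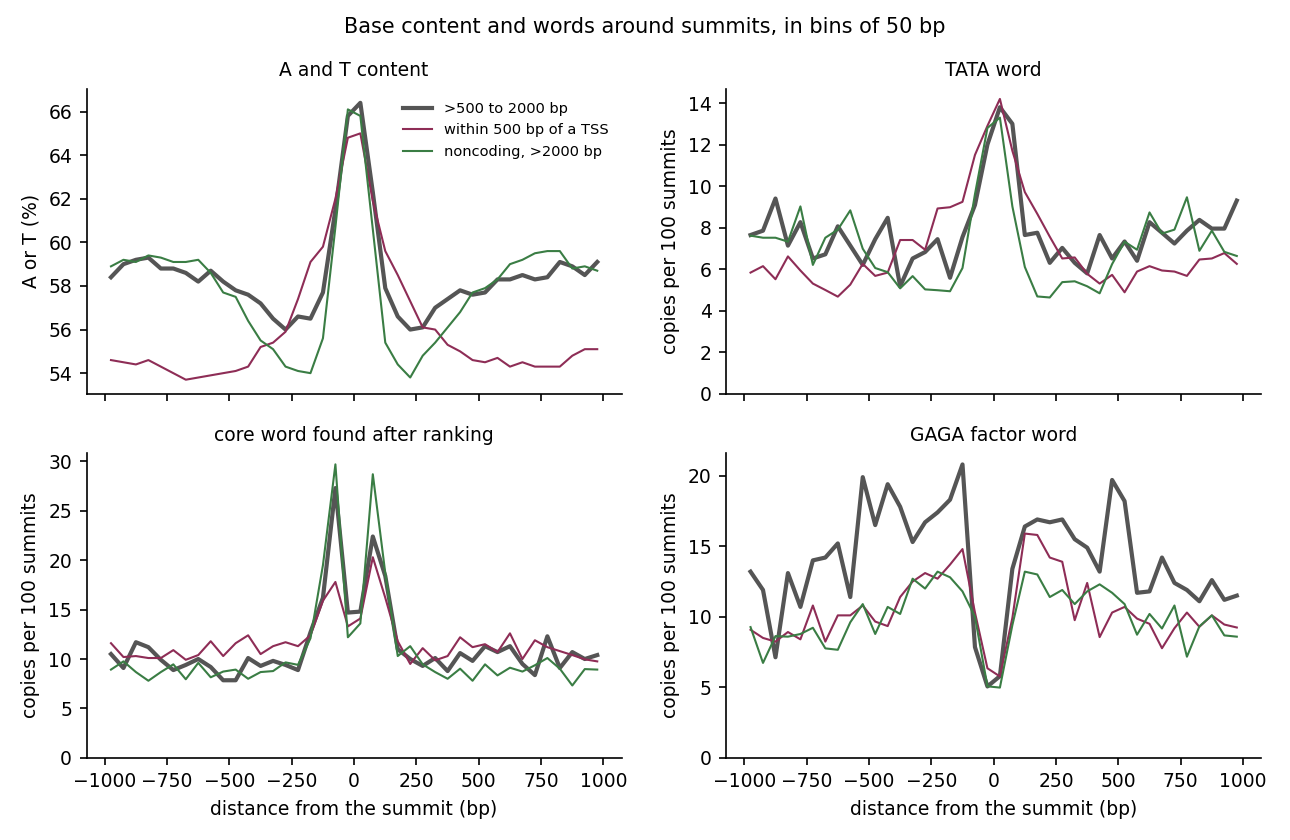
A and T content (percent) and copies per 100 summits of the TATA word, the core word found after ranking and the GAGA factor word, in bins of 50 bp by distance from the summit (x axis, bp), for the 968 sites (thick line), promoter summits and distal noncoding summits. A and T content and the TATA word peak at the summit, the core word peaks at 50 to 100 bp on both sides with 24.8 copies per 100 sites, and the GAGA factor word dips to 5.42 within 50 bp.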

How the data were processed

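Signal, score and summit position of each peak were deposited by the authors as peak lists on dm6. Per the file listings, the conservative list (5202 peaks, 69 off the arms used) and a longer list (5643) came from both replicates' alignments, and other lists from each replicate alone. The score, a whole number of at least 830 in each thresholded list, is derived by the authors from the irreproducible discovery rate. The sources used here name no aligner, peak caller or signal scale. Genes came from Ensembl release 115 (BDGP 6.54, the dm6 assembly, after names and lengths were compared), and sequences from its genome. The summit was the peak start plus the deposited offset, and the nearest of all protein-coding TSSs was assigned. Introns are gene bases outside exons. Shares have Wilson, differences Newcombe, densities exact Poisson 95% intervals; regions are not replicates, so no p-value was computed. The members, gene lists and words were chosen with earlier results of these data known. Named genes are those nearest to the 20 strongest sites, those with 3 or more sites, the 2 with the strongest site in each list, and those at the edges of the range; other list members are given by role. Replicate values come from the nearest summit within 100 bp in each replicate's ranked list. Classification and word search were tested on simulated data. Software was scipy 1.17.1, pandas 2.3.3, numpy 2.4.6 and matplotlib 3.10.9 under Python 3.11.15.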

Additional observations from a re-analysis of the deposited data

How the results depend on the processing

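Under 18 alternative settings, 68 of 97 recomputed shares, densities, medians and differences stayed inside the 95% interval of the reported value and 29 left it; no difference changed sign. Of 9 recomputed numbers of sites, 5 (665 to 1050) were within 1.5 times 968 and 4 were not. Narrower rules change counts by construction. The longer list gave 64.2 sites per Mb, a median signal of 123 and 56% matched in both replicates. Summits above the list's median signal gave 500 sites, 30.6 per Mb, a median of 219, 94.6% matched, 26.0% with a promoter companion, 16.4% with another summit within 1000 bp and a rise of TATAAA over flanks of 19.7 points (14.0 in the conservative list). With each replicate's list alone, the number of sites was 936 without replicate 2 and 665 without replicate 1, the density was 40.6 to 57.2 per Mb, the median signal 78.5 to 81.9 on each list's own scale, the share matched in both 62.5% to 89.0%, the companion share 29.2% to 34.9% and the share with a near summit 19.8% to 26.1%. One TSS per gene gave 38% upstream and 69.3% intronic. The part of the range up to 1000 bp held 430 sites, 68.8 per Mb and 53.0% upstream, and the part beyond it 538 and 53.2 per Mb. Matching within 50 bp left 54.5%, and the ranked lists gave 94.8%. Limits of 250 bp gave companions for 21.6% and a TSS of a gene that is not protein-coding for 1.76%; 2000 bp gave 42.0% with a near summit. Windows of 50 bp to each side cut the rise of TATAAA to 8.42 points and that of CACTG to 8.21. Chosen after seeing the data, the 586 sites matched in both replicates gave 35.8 per Mb and a median of 197. The share of intronic sites moved only with 1 TSS per gene. Read depth is unknown and no control library was used; the weakest 242 sites, 2.89% of which were matched in both replicates, carry the least support from the single replicates.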
